A study of Ictidomys tridecemlineatus with 15 samples.

Results

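The DnaJ co-chaperones are the proteins that carry a J domain, and 36 of their genes were followed in supraoptic nucleus RNA of a hibernator, the thirteen-lined ground squirrel Ictidomys tridecemlineatus, in 3 states. Members were the rows whose symbol begins with Dnaja, Dnajb or Dnajc and a number and whose mean over the 15 libraries was at least 1 normalised CPM (the authors' read counts scaled to library size and by a factor per library). Of 40 such rows among the 16993 genes of the table, Dnaja1, Dnajb1 and Dnajb9 were left out by name and Dnajc22 lay below the floor. Just outside it, Dnajc22 averaged 0.670 normalised CPM, and just inside it Dnajb3 averaged 1.16. The 36 members comprise 3 of class A, 9 of class B and 24 of class C. Dnajc5b, Dnajc5g, Dnajc25, Dnajb7 and Dnajb8 were not analysed here.

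J-domain proteins are the partners that put Hsp70 to work. The J domain makes an Hsp70 hydrolyse its bound ATP and close on a client protein, and a nucleotide exchange factor then reopens it. Class A and class B members mostly bring unfolded clients themselves, whereas class C members are tied to one place or task, such as the lumen of the endoplasmic reticulum, the import motor of mitochondria, coated vesicles or the spliceosome. In neurons the family is best known for the cysteine string protein of synaptic vesicles, for auxilin, which strips clathrin coats, and for the class B members that hold back protein aggregation.

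The torpor group (5 libraries) and the interbout arousal group (IBA, 5 libraries) were both from hibernating animals, torpor being the cold, inactive phase and IBA the short warm phase between bouts of it. The Active group (5 libraries) was from non-hibernating animals. The nucleus was cut out by hand from brain slices, the design text calls the 5 libraries of a state biological replicates, and the labels give neither age nor sex. The tissue label was checked against its neurons' genes: Otp (89.5 to 193 normalised CPM), Sim1 (42.4 to 92.7), Pou3f2 (37.2 to 99.0) and Scg2 (1017 to 2113) were present in every library, as were Pdyn (203 to 674) and Caprin2 (203 to 534). The other genes of that list of 8 were near 0: Nos1 at 0.298 to 1.44 normalised CPM and Gal at no more than 1.57, with 0 in 1 library. Each library held 15844561 to 26113341 recovered reads. Behind the 3 members under a mean of 3 normalised CPM (Dnajb3, Dnajc30 and Dnajb13) stood 4 to 115 reads per library, and behind the other 33 members 40 to 5708.

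Torpor was set against Active to ask which J proteins differ between hibernating and non-hibernating animals. Members that rose in torpor were Dnajc4 and Dnaja3 of mitochondria, the Hsp70 and Hsp90 adaptor Dnajc7 and the splicing-linked Dnajc17. The BiP partner Dnajc3 and the cytosolic Dnajb4 fell. These 6 of 36 members (16.7%) passed an adjusted p of 0.05 (limma-trend across all genes, Benjamini-Hochberg), 4 higher and 2 lower, against 3018 of 15501 genes tested (19.5%, with 9.73% higher and 9.74% lower), so the members' share lay near that of all genes. At an unadjusted p under 0.05 there were 14 members, against 33.8% of all genes. All members passed the filter on low values, so none was lost from the count. The members' log2 fold changes ran from -0.54 to 0.49 with a median of 0.04, beside a median of 0.0075 over all genes. The median standard error of the log2 fold change was 0.116 for the members and 0.156 for all genes. For 22 of 36 members (61.1%) the 95% interval of the log2 fold change lay within 0.5 of 0, against 38.5% of all genes. That interval narrows with the standard error, whose median was smaller for the members, so the 2 shares do not compare the size of change alone. Groups did not overlap for 4 members (11.1%), Dnajc4, Dnajc7 and Dnajc17 higher and Dnajc3 lower, against 12.2% of all genes. With scaling to library size alone 6 members also passed, but 2 higher (Dnajc4, Dnajc7) and 4 lower (Dnajc3, Dnajb4, Dnajc1, Dnaja4). That scaling moved all genes down, with a median shift of -0.078. Under it the median log2 fold change was -0.065 over all genes and -0.040 over the members. The counts of all genes called higher and lower under it are not given here, so the members' split of 2 and 4 has no background.

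**Figure D1:**
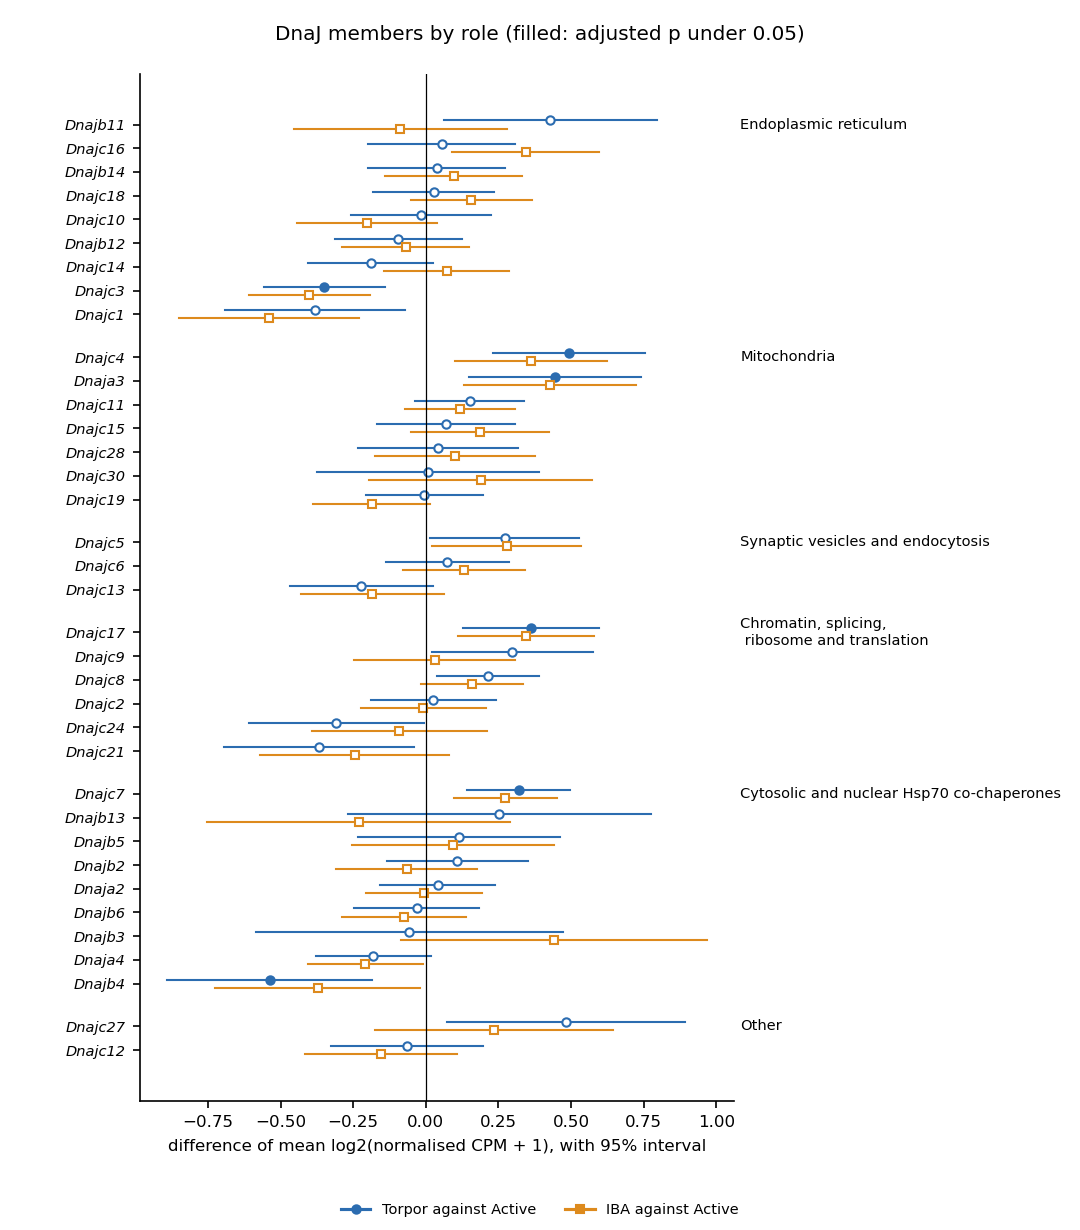
Log2 fold change of the 36 DnaJ members, grouped by role down the page, in Torpor against Active and in IBA against Active. Points are limma estimates on log2(normalised CPM + 1), bars are 95% intervals and filled points have an adjusted p under 0.05. The 6 filled points, 4 above 0 and 2 below, are in Torpor against Active, and most intervals in both columns cross 0.

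Marker genes of other cell types differed between the states, and in bulk RNA fewer cells of a type and less RNA per cell cannot be told apart. Of 12 oligodendrocyte markers 9 were higher in torpor and 0 lower by limma (11 of 12 had a fold change above 0), and their summed level was 4328 to 14629 normalised CPM in torpor, 3671 to 9523 in IBA and 2994 to 5375 in Active. The sum was highest in torpor replicates 4 and 5. Of 6 mural markers 4 were lower in torpor, with sums of 174 to 399 normalised CPM against 356 to 458 in Active, and of 7 endothelial markers 3 were lower, with sums of 194 to 258 in torpor against 228 to 373 in Active. Of 9 neuron markers 2 were higher and 1 lower in torpor (sums of 4894 to 5553 in torpor and 4253 to 4952 in Active), of 8 astrocyte markers 1 was lower (5030 to 6857 in torpor and 7431 to 14236 in Active), and of 7 microglia markers 2 were higher. A sum follows its most abundant genes, for astrocytes Gfap among them (981 to 8493 normalised CPM over the libraries). The mean log2 values of the astrocyte markers overlapped, at 7.81 to 8.57 in torpor and 8.36 to 8.81 in Active. Of the 8 magnocellular and hypothalamic genes 2 were lower and 0 higher in torpor (median log2 fold change -0.11, lowest -0.77), with sums of 2009 to 3455 in torpor, 1701 to 3279 in IBA and 2823 to 3274 in Active. With the oligodendrocyte marker level as a covariate 0 of the 36 members passed in limma, and 757 genes of the table did. That level (the mean log2 value of the markers) itself differed by state, at 6.42 to 7.21 in Active and 7.08 to 8.44 in torpor. A fit with both therefore cannot fully separate marker level from state. In that fit the log2 fold change was 0.29 for Dnajc4 (adjusted p = 0.343), 0.63 for Dnaja3 (0.0879), 0.39 for Dnajc7 (0.0759), 0.47 for Dnajc17 (0.111), -0.26 for Dnajc3 (0.307) and -0.07 for Dnajb4 (0.879). Compared with the fit without the covariate, the estimate was larger in size for Dnaja3, Dnajc7 and Dnajc17 and smaller for Dnajc4, Dnajc3 and Dnajb4. The part of the other marker lists in the members' values was not tested.

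Each level is given per library in the order of the replicate numbers or as mean ± SD of 5 libraries, and a log2 fold change as estimate ± SE. Mitochondria hold 7 of the members. In Torpor against Active 2 of these 7 rose, 0 fell, and 6 of 7 fold changes lay above 0 with a median log2 value of 0.07. Dnajc4, a mitochondrial J protein, had 42.3, 44.0, 40.7, 40.0 and 37.8 normalised CPM in the torpor libraries, 33.6, 52.2, 33.7, 40.9 and 29.5 in the IBA libraries and 31.6, 29.0, 27.6, 26.1 and 29.7 in the Active libraries. Every torpor library lay above every Active one, and the IBA libraries spread most widely, reaching down into the Active range in replicate 5 and up to the highest value of all in replicate 2. Its mean was 41.0 ± 2.34 in torpor and 28.8 ± 2.09 in Active (SD, n = 5 each), 1.42 times the Active mean, with a log2 fold change of 0.49 ± 0.12 (SE; limma adjusted p = 0.0109). Leaving out any single library of the 15 kept the call.

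Dnaja3, the class A partner of the Hsp70 of the mitochondrial matrix, had 39.6, 52.0, 58.6, 49.0 and 46.1 normalised CPM in torpor, 51.7, 39.9, 40.9, 55.0 and 55.8 in IBA and 39.1, 40.7, 40.5, 25.8 and 33.9 in Active. Torpor and Active overlapped at their edges, because torpor replicate 1 lay below Active replicates 2 and 3. The mean was 49.1 ± 7.02 in torpor and 36.0 ± 6.35 in Active (SD, n = 5 each), and the log2 fold change was 0.44 ± 0.14 (limma adjusted p = 0.0346). The call was lost without any 1 of Active replicates 4 and 5 or torpor replicates 2, 3 and 4 (adjusted p = 0.0560 to 0.0896), with library-size scaling (0.0647) and, barely, in a fit of only the 10 libraries compared (0.0501). Its gene span overlaps that of Nmral1, and whether the counting used strand is not stated, so reads of the 2 genes may have been mixed. The other 5 mitochondrial members had log2 fold changes of -0.01 to 0.15 without passing. Among them Dnajc11, of the inner-membrane organising machinery, averaged 106 ± 11.7 in torpor and 94.97 ± 4.84 in Active (log2 0.15 ± 0.09, limma adjusted p = 0.251), and Dnajc15, of the import motor, averaged 108 ± 9.65 in torpor and 104 ± 14.9 in Active (log2 0.07 ± 0.11).

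**Figure D2:**
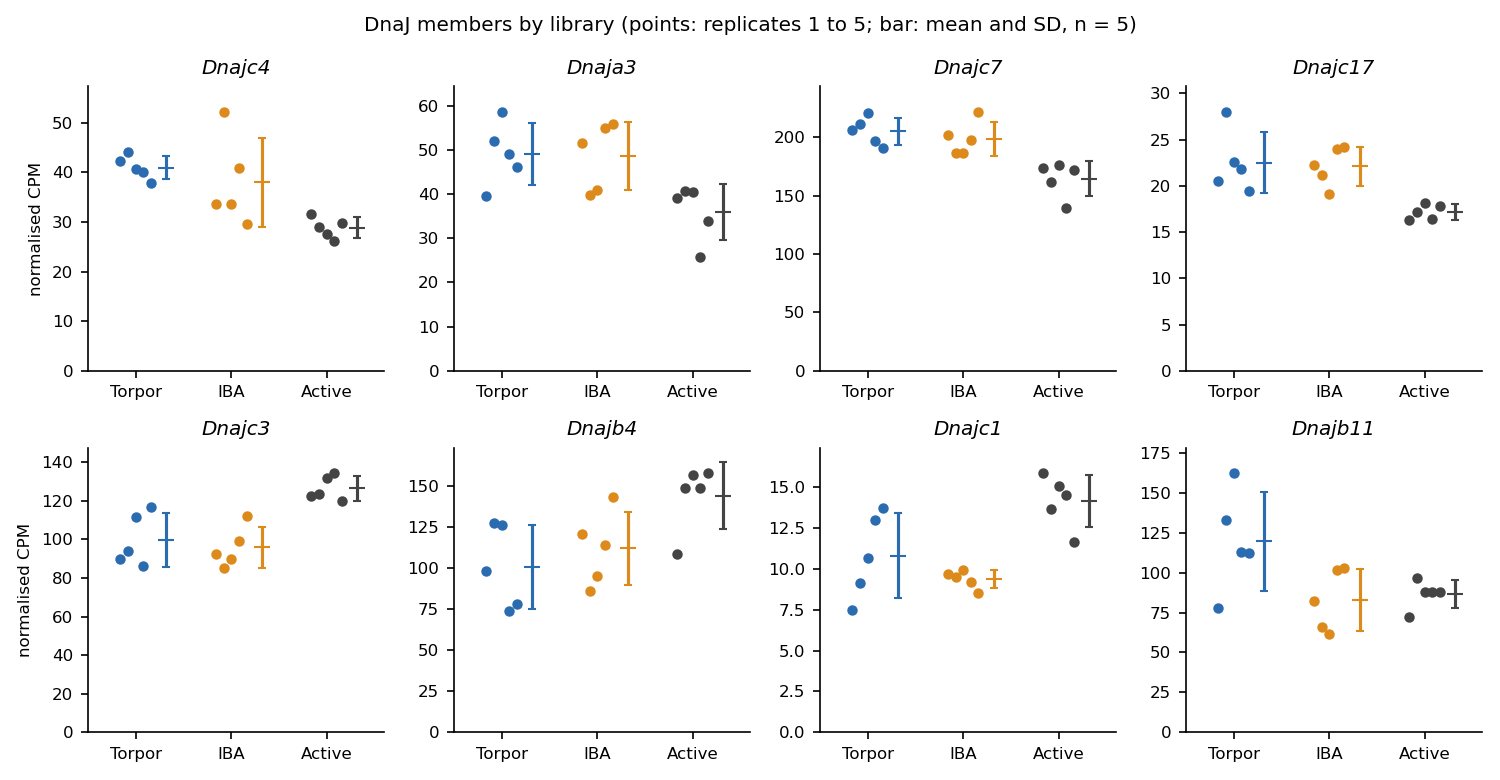
Normalised CPM of 8 DnaJ members in each of the 15 libraries, torpor, IBA and Active from left to right in each panel. Points are libraries and bars give the mean and SD of 5. For Dnajc4, Dnajc7 and Dnajc17 all torpor points stand above all Active points, and for Dnajc3 all stand below.

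The endoplasmic reticulum holds 9 of the members, among them partners of its Hsp70, BiP. In Torpor against Active 1 of these 9 fell, 0 rose and the median log2 fold change was -0.02. Dnajc3, a lumenal co-chaperone of BiP also known as an inhibitor of kinases of the initiation factor eIF2alpha, had 89.5, 94.1, 112, 85.9 and 117 normalised CPM in torpor, 92.4, 85.3, 89.9, 99.0 and 112 in IBA and 122, 123, 132, 134 and 119.9 in Active. All 10 libraries of hibernating animals lay below all Active libraries. The mean was 99.6 ± 13.8 in torpor and 126 ± 6.29 in Active (SD, n = 5 each), with a log2 fold change of -0.35 ± 0.10 (limma adjusted p = 0.0208). Without torpor replicate 4 the adjusted p was 0.0552, and without torpor replicate 2 and Active replicate 4 together it was 0.0632. The gene span of Dnajc3 overlaps those of pseudogenes.

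Dnajc1, a membrane protein that recruits BiP near the ribosome, had 7.49, 9.14, 10.6, 12.96 and 13.7 normalised CPM in torpor, 9.70, 9.51, 9.90, 9.16 and 8.54 in IBA and 15.8, 13.6, 15.04, 14.5 and 11.6 in Active. Torpor replicates 4 and 5 reached into the Active range, while the IBA libraries sat close together below it. In torpor its log2 fold change was -0.38 ± 0.15 against Active and did not pass (limma adjusted p = 0.0756), except with library-size scaling (-0.46, 0.0393), without torpor replicate 5 (-0.47, 0.0390) or without both torpor replicates 4 and 5 (-0.59, 0.0151). Dnajb11, a lumenal class B co-chaperone that hands unfolded proteins to BiP, pointed the other way. It had 77.9, 133, 162, 113 and 112 normalised CPM in torpor, 82.5, 65.9, 61.3, 102 and 103 in IBA and 72.4, 96.5, 88.1, 87.8 and 87.9 in Active, a log2 difference of 0.43 ± 0.17 between torpor and Active that did not pass (limma adjusted p = 0.0926). It passed by DESeq2 on the recovered reads (0.46, adjusted p = 0.0430) and in limma without torpor replicate 1 (0.57, 0.0182). In 4 of 5 torpor libraries it exceeded every Active library, and torpor replicate 1 lay above Active replicate 1 only. The remaining 6 members, with log2 values of -0.19 to 0.05, included Dnajc10, a reductase of wrong disulfide bonds, at 209 ± 24.4 normalised CPM in torpor and 210.2 ± 13.1 in Active. The 95% interval of its log2 fold change ran from -0.26 to 0.22. BiP (Hspa5), the Hsp70 of the lumen, had 2008, 2612, 2619, 1959 and 1479 normalised CPM in torpor and 2201, 2706, 2668, 2847 and 2683 in Active. Its log2 difference of -0.32 ± 0.15 did not pass (limma adjusted p = 0.144).

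The 9 cytosolic and nuclear co-chaperones split evenly, with 1 that rose and 1 that fell in torpor and a median log2 fold change of 0.04. Dnajc7, a tetratricopeptide protein that binds both Hsp70 and Hsp90, had 206, 211, 220.3, 197 and 191 normalised CPM in torpor, 202, 186, 186, 198 and 222 in IBA and 173, 162, 176, 139.7 and 172 in Active. The lowest of the 10 hibernating libraries was above the highest Active one. Its mean was 205 ± 11.6 in torpor and 164 ± 14.9 in Active (SD, n = 5 each), with a log2 fold change of 0.32 ± 0.08 (limma adjusted p = 0.0140), and leaving out any single library kept the call. The gene span of Dnajc7 overlaps that of a long noncoding RNA.

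Dnajb4, a class B co-chaperone of cytosolic Hsp70 and a close relative of Dnajb1, had 98.4, 128, 126, 74.1 and 78.0 normalised CPM in torpor, 121, 86.5, 95.4, 114 and 144 in IBA and 109, 149, 157, 149 and 158 in Active. Active replicate 1 stood apart below the other 4 Active libraries, inside the torpor range, and torpor replicates 4 and 5 were the lowest of all. The log2 fold change was -0.54 ± 0.17 (limma adjusted p = 0.0329). The call was lost without any 1 of Active replicates 2 to 5 or torpor replicates 1, 4 and 5 (adjusted p = 0.0517 to 0.0864), and without both torpor replicates 4 and 5 the log2 fold change was -0.29 (0.231). The other 7 had log2 values of -0.18 to 0.25 without passing. They include Dnaja4, a class A co-chaperone, at 45.8 ± 3.00 normalised CPM in torpor and 52.1 ± 4.43 in Active (log2 -0.18 ± 0.09, limma adjusted p = 0.186), and Dnajb2, which restrains aggregation in neurons, at 132 ± 19.6 in torpor and 122 ± 18.8 in Active (log2 0.11 ± 0.12). Dnajb13, a radial spoke protein of cilia and sperm tails, was near the floor, with 1.81 to 5.21 in torpor and 0.876 to 3.93 in Active.

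Of the 6 members that work on chromatin, splicing, ribosomes or translation 1 rose and 0 fell, with a median log2 fold change of 0.12. Dnajc17, a nuclear protein with an RNA-recognition motif linked to splicing, had 20.5, 28.0, 22.6, 21.8 and 19.5 normalised CPM in torpor, 22.3, 21.2, 19.1, 24.0 and 24.2 in IBA and 16.3, 17.2, 18.1, 16.4 and 17.8 in Active. The 5 Active libraries lay within a narrow band below all others. The mean was 22.5 ± 3.30 in torpor and 17.2 ± 0.825 in Active (SD, n = 5 each), and the log2 fold change was 0.36 ± 0.11 (limma adjusted p = 0.0307). It was lost without any 1 of Active replicates 1, 2 and 4 or torpor replicates 2 and 3 (adjusted p = 0.0537 to 0.0684), with library-size scaling (0.0619) and in a fit of only the 10 libraries compared (0.0591). Its span overlaps that of C5H15orf62. Another 4 of these 6 had an unadjusted p under 0.05, in both directions, and did not pass adjustment. Dnajc8, a spliceosome component, averaged 164 ± 8.66 normalised CPM in torpor and 142 ± 11.9 in Active (log2 0.21 ± 0.08, limma adjusted p = 0.0764), and passed by limma-voom (0.0496) and without Active replicate 4 (0.0475). Dnajc9, a histone chaperone, averaged 82.4 ± 12.97 in torpor and 66.9 ± 10.9 in Active (log2 0.30 ± 0.13, 0.121). Dnajc21, needed to mature the large ribosomal subunit, averaged 6.80 ± 1.08 in torpor and 9.15 ± 2.09 in Active (log2 -0.37 ± 0.16, 0.105). Of the 6 fold changes in this role 4 lay above 0 and 2 below it.

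Of the 3 members of synaptic vesicles and endocytosis 0 passed in Torpor against Active by limma-trend, and likewise 0 by edgeR, DESeq2 or limma-voom on all 15 libraries, while 1 had an unadjusted p under 0.05. Dnajc5, the cysteine string protein that keeps vesicle fusion proteins folded, had 135, 152, 185, 212 and 185 normalised CPM in torpor, 182, 167, 161, 188 and 165 in IBA and 166, 132, 154, 112 and 151 in Active. The states overlapped, and the log2 fold change was 0.27 ± 0.12 in torpor (limma adjusted p = 0.126). Without torpor replicate 1, its lowest torpor library, it was 0.36 and passed (0.0425). Dnajc6, neuronal auxilin, averaged 213 ± 27.3 in torpor and 201 ± 17.8 in Active, and the 95% interval of its log2 fold change ran from -0.14 to 0.28. Dnajc13, an endosomal J protein, averaged 35.0 ± 3.89 in torpor and 41.1 ± 5.05 in Active, with an interval of -0.47 to 0.02. Of the 2 members with other roles, Dnajc27, a small GTPase that carries a J domain, had 5.43, 5.40, 4.30, 8.88 and 6.18 normalised CPM in torpor and 4.70, 5.45, 3.52, 2.41 and 4.13 in Active. Its log2 fold change of 0.48 ± 0.19 did not pass (limma adjusted p = 0.0889). Dnajc12, which helps fold the hydroxylases that make catecholamines and serotonin, averaged 97.5 ± 20.9 in torpor and 101 ± 9.57 in Active (log2 -0.07 ± 0.12).

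IBA was set against Active to ask which differences are present when hibernating animals are warm. By limma-trend 0 of 36 members passed, against 202 of 15501 genes (1.3%), while 10 members had an unadjusted p under 0.05, against 19.7% of all genes. On the recovered reads edgeR called 0, DESeq2 3 (Dnajc3 and Dnajc1 lower, Dnajc7 higher) and limma-voom 2 (Dnajc3 and Dnajc1 lower). The members' median log2 fold change was 0.05, with 19 above 0 and 17 below. The 2 states' groups did not overlap for Dnajc3 and Dnajc1, lower in IBA, nor for Dnajc7 and Dnajc17, higher in IBA, which is 11.1% of members against 7.01% of all genes. Dnajc3 had a log2 fold change of -0.40 ± 0.10 (limma adjusted p = 0.0519), with means of 95.7 ± 10.4 normalised CPM in IBA and 126 ± 6.29 in Active. Without any 1 of IBA replicate 5 or torpor replicates 2, 4 and 5 its adjusted p was 0.0416 to 0.0469. Dnajc1 had -0.54 ± 0.15 on the same scale (0.0710), with means of 9.36 ± 0.534 in IBA and 14.1 ± 1.60 in Active. The 4 members that rose in torpor also lay above Active in IBA without passing in limma: Dnajc4 by 0.36 ± 0.12 (adjusted p = 0.130), Dnaja3 by 0.43 ± 0.14 (0.115), Dnajc7 by 0.27 ± 0.08 (0.0984) and Dnajc17 by 0.35 ± 0.11 (0.110). Both comparisons use the same 5 Active libraries, so they are not independent of each other.

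Torpor was set against IBA to ask what differs between the cold and the warm phase, and this also tests whether the 2 states' differences from Active are unequal. By limma-trend 0 of 36 members passed, against 455 of 15501 genes (2.94%), and 3 members had an unadjusted p under 0.05, against 19.4% of all genes. On the recovered reads edgeR called 0, while DESeq2 and limma-voom each called 1, Dnajb11. The groups overlapped for every member. Of all genes 5.76% had no overlap, a share at which few of 36 members would be expected, so this does not set the members apart. For the 6 members called in Torpor against Active, the log2 difference between torpor and IBA was -0.16 to 0.13, with the 95% interval widest for Dnajb4 at -0.52 to 0.19 and narrowest for Dnajc7 at -0.13 to 0.22. Dnajb11 had the smallest p, with a mean of 119.5 ± 30.9 normalised CPM in torpor and 82.8 ± 19.4 in IBA and a log2 fold change of 0.52 ± 0.17 (limma adjusted p = 0.111). Without torpor replicate 1, its lowest torpor library, the adjusted p was 0.0271. Dnajc14, an endoplasmic reticulum membrane J protein linked to receptor export, averaged 50.6 ± 5.52 in torpor and 60.9 ± 6.47 in IBA (log2 -0.26 ± 0.10, adjusted p = 0.159). Dnajc16 averaged 42.9 ± 3.76 in torpor and 52.6 ± 4.17 in IBA (log2 -0.29 ± 0.12, 0.190). Dnajc9 had a log2 difference of 0.27 ± 0.13 (0.274), and Dnajb3, near the floor, -0.50 ± 0.25 (0.289).

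In the authors' deposited table, whose joint test asks for any difference among the 3 states, 5 of the 36 members (13.9%) have a false discovery rate under 0.05, against 2481 of 16993 genes (14.6%). These are Dnajc3 (0.0205), Dnajc7 (0.0297), Dnajc4 (0.0299), Dnajc1 (0.0386) and Dnajc17 (0.0464) in the authors' deposited table. The members as a whole kept a similar summed level: 2599 to 3064 normalised CPM in the torpor libraries, 2577 to 3031 in IBA and 2614 to 2871 in Active.

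The 3 DnaJ genes left out by name encode inducible J proteins. Dnaja1, the main class A partner of cytosolic Hsp70, had 348, 454, 389, 236 and 346 normalised CPM in torpor and 492, 477, 641, 622 and 572 in Active. Its log2 fold change of -0.68 ± 0.15 (limma adjusted p = 0.00583) was larger in size than that of any of the 36 members. Dnajb9, an inducible BiP co-chaperone, averaged 172 ± 16.1 in torpor, 139.9 ± 22.4 in IBA and 231 ± 23.4 in Active. It fell in torpor by 0.43 on the log2 scale (limma adjusted p = 0.0115) and in IBA by 0.73 (0.00399), although without both torpor replicates 4 and 5 the first was 0.0505. With the oligodendrocyte covariate the log2 fold change in torpor was -0.31 for Dnaja1 (adjusted p = 0.374) and -0.26 for Dnajb9 (0.338), and that of Dnajb9 in IBA was -0.63 (0.0572). Dnajb1, the heat-inducible class B co-chaperone, had a log2 fold change of -0.24 ± 0.11 in torpor and did not pass (limma adjusted p = 0.128), except with library-size scaling (0.0387).

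Beyond the DnaJ genes, 30 genes of the Hsp70 cycle are given: 13 Hsp70 proteins, 11 exchange factors, 3 adaptors and 3 J proteins under other symbols (Gak, Hscb and Sec63). The Hsp70 proteins were grouped by their Hspa symbols, which do not tell their tasks in the cycle apart. In Torpor against Active 8 of 30 (26.7%) passed, 3 higher and 5 lower, with a median log2 fold change of -0.054, beside 19.5% of all genes (9.73% higher and 9.74% lower). The count was 4 without torpor replicate 4 or torpor replicate 5 and 5 without Active replicate 2, 3 or 4. Of the Hsp70 proteins 3 of 13 fell and 0 rose. Hspa8, the constitutive cytosolic Hsp70 that also uncoats clathrin with auxilin, had 3354, 4005, 3525, 2384 and 2607 normalised CPM in torpor and 3763, 4156, 5225, 4758 and 3692 in Active, with overlap and a log2 fold change of -0.46 ± 0.15 (limma adjusted p = 0.0431). The inducible Hspa1b had 8.31, 7.47, 8.30, 3.40 and 6.18 in torpor and 8.23, 14.7, 16.8, 12.9 and 12.1 in Active (log2 -0.87 ± 0.21, 0.00771), and Hspa2 had 5.43, 8.10, 9.53, 9.56 and 7.91 in torpor and 26.0, 14.9, 12.2, 15.7 and 12.8 in Active (log2 -0.90 ± 0.25, 0.0199). Every torpor library of Hspa2 was below every Active one, while 2 torpor libraries of Hspa1b slightly exceeded the lowest Active one. Hspa1a and Hspa1b are near-identical copies in mammals, so their reads may have been split between them by the counting. The mitochondrial Hsp70, Hspa9, did not pass (log2 0.15 ± 0.11, 0.361).

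Among the exchange factors 3 rose and 1 fell. Bag1, which couples Hsp70 to the proteasome, had 36.5, 40.1, 38.5, 41.0 and 41.1 normalised CPM in torpor, above every value in IBA (26.9 to 34.8) and in Active (27.2 to 35.6), with a log2 fold change of 0.32 ± 0.10 against Active (limma adjusted p = 0.0340). Bag4 (0.39 ± 0.11, 0.0160) and Hspbp1 (0.43 ± 0.14, 0.0329) also rose, with overlap, while Bag2, an inhibitor of the ligase Stub1, fell (-0.31 ± 0.11, 0.0485). Stip1, the adaptor that passes clients of Hsp70 to Hsp90, had 276, 288, 292, 200.5 and 198 in torpor, 301, 237, 286, 258 and 343 in IBA and 426, 405, 541, 460.5 and 401 in Active. It fell in torpor (-0.84 ± 0.13, limma adjusted p = 5.81e-04) and in IBA (-0.65 ± 0.13, 0.0242). Of the 3 J proteins under other symbols 0 passed by limma, and 2 had an unadjusted p under 0.05.

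In IBA against Active 1 of the 30 genes passed (3.33%, Stip1), beside 1.3% of all genes. In Torpor against IBA 0 passed by limma, beside 2.94% of all genes, with 4 at an unadjusted p under 0.05, while edgeR called 1, DESeq2 2 and limma-voom 1, and limma called 1 without torpor replicate 1. With the oligodendrocyte covariate 0 of the 30 passed in Torpor against Active. Of the 8 genes called without it, Hspa2 had a log2 fold change of -0.86 in that fit (adjusted p = 0.200), Bag4 0.31 (0.257), Bag1 0.23 (0.378), Hspbp1 0.28 (0.420), Bag2 -0.21 (0.460), Hspa1b -0.48 (0.342), Stip1 -0.42 (0.111) and Hspa8 0.026 (0.944). Several calls in Torpor against Active lay so near the threshold that they were lost with 1 library left out, for some also an IBA library, which leaves the fold change as it is. This was so for Hspa2 without Active replicate 1 (adjusted p = 0.0515), for Bag1 without any 1 of Active replicates 2 to 4 or torpor replicates 3 to 5 (0.0535 to 0.0833), and for Hspbp1 without any 1 of Active replicates 2 and 4 or torpor replicates 3 to 5 (0.0549 to 0.0844). It was also so for Hspa8 without any 1 of Active replicates 2 to 4, IBA replicates 3 and 4 or torpor replicates 1, 4 and 5 (0.0513 to 0.112), and for Bag2 without any 1 Active library, IBA replicates 1, 2 and 3 or torpor replicates 1, 4 and 5 (0.0511 to 0.114). The call of Stip1 in IBA was lost without any 1 of Active replicates 3 and 4 or IBA replicates 3 and 4 (0.0554 to 0.0789).

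**Figure D3:**
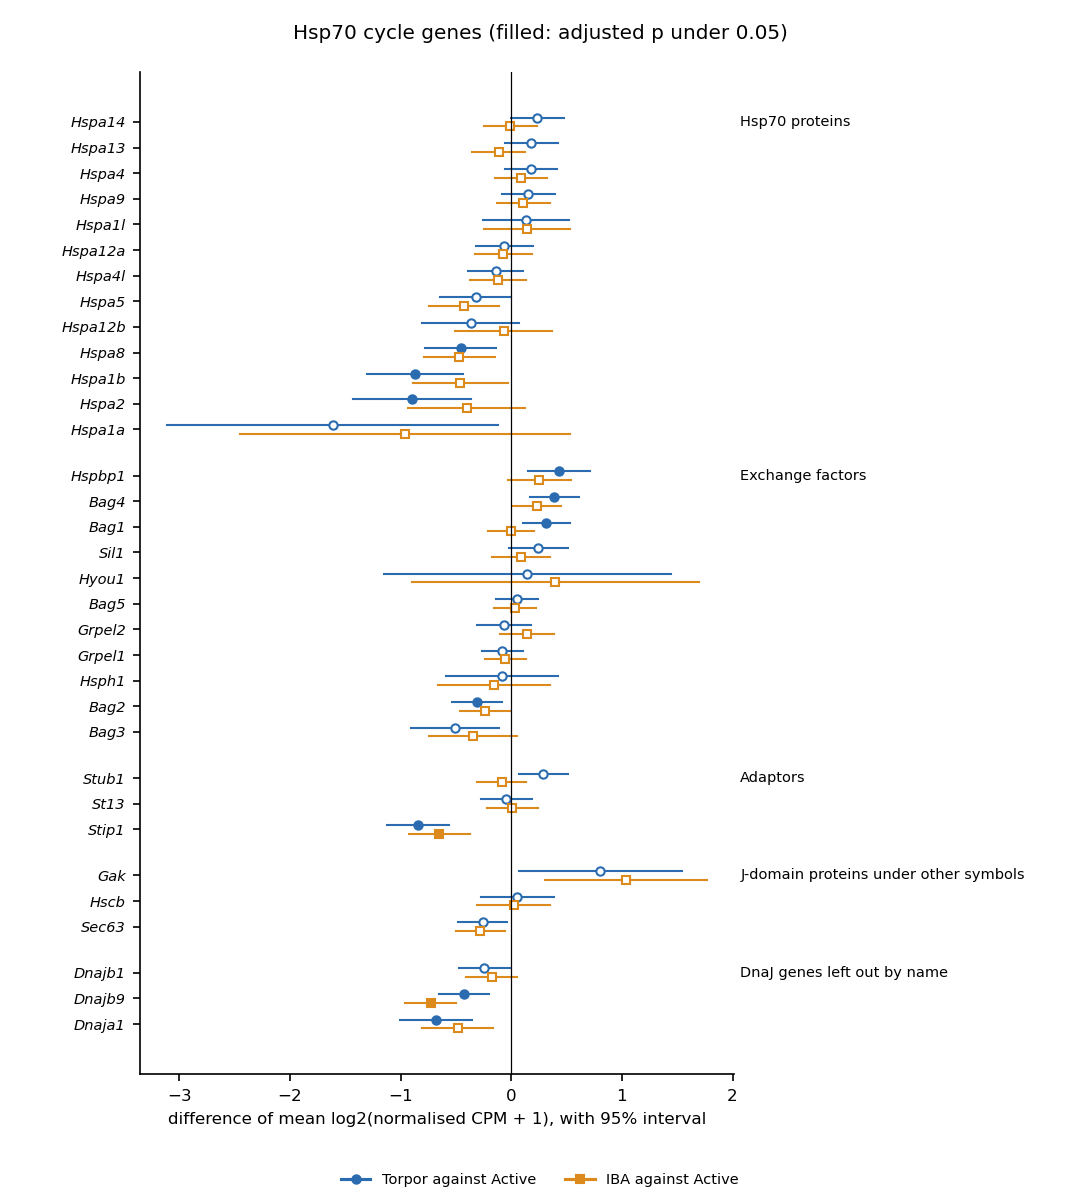
Log2 fold change of 30 Hsp70 cycle genes and of Dnaja1, Dnajb1 and Dnajb9, in Torpor against Active and in IBA against Active. Points are limma estimates on log2(normalised CPM + 1), bars are 95% intervals and filled points have an adjusted p under 0.05. Stip1 and Dnajb9 are filled below 0 in both comparisons.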

How the data were processed

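The authors deposited, per the file headers, a signal per gene and library as normalised CPM, log2 fold changes against Active, and the p-value of a joint test with its false discovery rate. The submitters' processing notes name edgeR 3.38.4 in R 4.2.1, Subread 2.0.1 with featureCounts, STAR 2.7.7a and Trimmomatic 0.39. Build, annotation and strand setting are not given in the sources used. Each library's deposited signal came in even steps, so whole read counts could be recovered (100% of values, tolerance 0.1 read).

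Genes with at least 1 normalised CPM in at least 5 libraries (15501, with 1492 removed) were fitted with limma-trend (limma 3.58.1, R 4.3.3, robust empirical Bayes) on log2(value + 1) over all 15 libraries without covariates, two-sided, with Benjamini-Hochberg adjustment over all genes and a threshold of 0.05. This scale understates changes of low genes. The procedure was also run on simulated counts, with changes placed only in torpor and no shift in cell types. Its outcome is not given here, and it cannot tell how the calls behave under such a shift. The recovered reads were also fitted with edgeR 4.0.16, DESeq2 1.42.0 and limma-voom; other alternatives changed scaling, filter, pseudocount, threshold, covariates, replicate block or libraries. The members and lists were chosen with earlier results of these data known. Roles came from general knowledge. Named genes were all members that passed, the 5 of smallest p in a comparison with fewer than 5, up to 3 others per role by p in Torpor against Active, and called Hsp70 cycle genes; BiP, Hspa9, Gak, Hyou1 and Hspa1a were named after their values were seen. Gene names and span overlaps came from a RefSeq name table (35 of 36 members matched); 14 members overlap another gene. Levels were not compared between genes. A gene of the Hsp70 cycle list is not reported here. Libraries labelled biological replicates are not said to be single animals.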

Additional observations from a re-analysis of the deposited data

Results flagged for a closer look

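Among 108 groups of 5 libraries (36 members in 3 states), 1 library stood apart from the other 4 by Dixon's criterion (the gap to the nearest library as a share of the group's range) in 5 groups. At about 1 in 20, 5.4 such groups are expected by chance, so the count shows no excess. Dnajb4 was 109 normalised CPM in Active replicate 1, against 149 to 158 in the other 4 Active libraries. Dnajc24, needed for the diphthamide modification of elongation factor 2, was 14.9 in torpor replicate 4, against 24.6 to 26.2 in the other torpor libraries. Dnajc14 was 49.6 in IBA replicate 3, against 62.3 to 66.1 in the other IBA libraries. IBA replicate 5 stood apart upwards for 2 members, at 53.6 for Dnaja4, against 40.6 to 43.8 in the other IBA libraries, and at 259 for Dnajc6, against 207 to 214.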

How the results depend on the processing

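Depth limits Dnajb3, Dnajc30 and Dnajb13, with 4 to 115 reads per library. Of 840 gene-level alternatives over 29 results, 716 kept direction and side of the threshold, 103 lost the call, 20 gained one and 1 reversed: Hspa8 in torpor, at 0.026 (log2, adjusted p = 0.944) with the oligodendrocyte covariate. The 840 include fits without a library of the state not compared, which leave the fold change as it is. They also include results not called as reported, for which keeping the side means staying uncalled. The 716 is therefore not a measure of how robust the calls are. Causes were not tested, beyond fewer libraries in some fits.

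In Torpor against Active the members called were 6 with edgeR, 7 with DESeq2 and 7 with limma-voom, 0 with the oligodendrocyte covariate, 3 without torpor replicate 2 and Active replicate 4, 0 at a threshold of 0.01 and 10 at 0.1, and 3 to 7 with 1 library left out (3 without torpor replicate 4). All genes called, 3018 as reported, were 757 with the covariate, 2272 to 3310 with 1 library left out and 757 to 3713 over all 29 alternative fits. Their count at the thresholds of 0.01 and 0.1 is not given here, so the members' counts there have no background. The members' median log2 value was 0.14 with the covariate.

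In IBA against Active the members called were 3 with DESeq2, 2 with limma-voom, 1 with library-size scaling, 1 with the stricter filter, 2 with only the 10 libraries compared, 2 without torpor replicates 4 and 5, 3 at a threshold of 0.1 and 0 to 1 with 1 library left out. All genes called, 202 as reported, were 819 with DESeq2, 702 with limma-voom, 18 with the covariate, 383 with only the 10 libraries, 361 without torpor replicates 4 and 5 and 26 to 380 with 1 library left out. Their counts with library-size scaling, the stricter filter and the threshold of 0.1 are not given here, so the members' counts there have no background.

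In Torpor against IBA the members called were 1 each with DESeq2, limma-voom, library-size scaling (Dnajc14) and the covariate (Dnajc10), and 0 to 1 with 1 library left out. All genes called, 455 as reported, were 1033 with DESeq2, 700 with limma-voom, 859 with library-size scaling, 257 with only the 10 libraries and 159 to 666 with 1 library left out. With library-size scaling the members' median log2 value was -0.064, beside -0.081 over all genes.

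Hsp70 cycle genes called in Torpor against Active were 8 as reported, 0 with the covariate, 4 with only the 10 libraries, 5 without torpor replicates 4 and 5 and 4 to 10 with 1 library left out. In IBA against Active they were 3 with limma-voom, 0 with the covariate, 2 with only the 10 libraries, 2 without torpor replicate 2 and Active replicate 4 and 0 to 2 with 1 library left out. In Torpor against IBA they were 2 with DESeq2, 1 with edgeR, 1 with limma-voom, 1 with the covariate, 1 without torpor replicates 4 and 5 and 0 to 1 with 1 library left out. Over the same 29 alternatives all genes called were 757 to 3713 in Torpor against Active. They were 18 to 819 in IBA against Active and 155 to 1033 in Torpor against IBA.

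Replicate numbers are shared by the states and are not said to pair libraries. Of 15 correlations of deviations between equal numbers 3 exceeded 0.1 (-0.317 to 0.203), and 3 of 15 libraries matched their own number best. With 5 libraries per state, these values cannot tell whether libraries of equal number share a preparation. With a replicate block 3 members were called in Torpor against Active (Dnajc3, Dnajc4, Dnajc7). All genes called with the block were 37 in IBA against Active, while Torpor against IBA had 155, and Hsp70 cycle genes called were 4 in Torpor against Active and 0 in each of the other comparisons. For Torpor against Active the count of all genes with the block is not given here. The 3 members and 4 Hsp70 cycle genes therefore have no background beyond the range of 757 to 3713 over all 29 alternative fits.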

Other observations

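Over the 33 members above a mean of 3 normalised CPM, the median coefficient of variation across the 5 libraries of a state was 13.3% in torpor (5.27% to 28.6%), 10.6% in IBA (5.43% to 23.5%) and 9.50% in Active (4.81% to 28.6%). No test of this was made.

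Gak, the widely expressed auxilin and a J-domain protein under another symbol, had 42.8, 22.7, 65.2, 90.5 and 82.7 normalised CPM in torpor, 69.3, 57.1, 63.8, 76.7 and 56.6 in IBA and 36.9, 38.5, 37.2, 13.8 and 37.1 in Active. Every IBA library lay above every Active one, torpor libraries reached both higher and lower than IBA, and neither difference from Active passed (log2 0.81 ± 0.34 in torpor, limma adjusted p = 0.114; 1.04 ± 0.34 in IBA, 0.126). Its neuronal relative Dnajc6 had log2 fold changes of 0.07 in torpor and 0.13 in IBA, neither of which passed.

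Hyou1, the exchange factor of BiP, had 58.8, 67.1, 26.2, 18.7 and 245 normalised CPM in Active, so a single state spanned more than its range in torpor (37.5 to 102) and in IBA (28.8 to 142). Hspa1a was 1.28 in torpor replicate 2, with 24.6 to 54.3 in the other torpor libraries and 53.3 to 84.4 in Active.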
